A study of Mus musculus with 9 samples.

Results

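The genes described here build and run the primary cilium, and 42 of them were followed by symbol through a comparison of Shh KO with Shh WT embryos. They encode the particles of intraflagellar transport, the motors that move them, the BBSome, the transition zone and a few membrane and basal body proteins. Each symbol was looked up in the full table that the authors deposited for this comparison, and all 42 had 1 row of their own among 27198 rows. None of them appears in the shorter deposited table of 253 genes, so no expression level can be given for them. The list was not chosen by its measured values in this comparison, though earlier results of these data were known by then.

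Polyadenylated RNA came from the posterior second heart field (pSHF), the mesoderm behind the early heart tube, dissected from mouse embryos at stage E10.5. Shh KO embryos (5 libraries), in which the gene for Sonic hedgehog, the secreted ligand that opens the Hedgehog pathway, is knocked out, were set against Shh WT embryos (4 libraries). Both genotypes are on a mixed strain background. The labels name neither the Shh allele nor how many embryos or litters a library holds, and the p-values therefore reflect the spread among the libraries at hand, part or all of which may be technical. Fold changes, p-values and q-values come from the authors' Cuffdiff comparison, which pools each genotype into 1 value, so values per library were not used here and depth is unknown. Since the tissue was taken in bulk, fewer cells of a type and less RNA per cell cannot be told apart.

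A primary cilium is a single antenna on the surface of most embryonic cells, grown from a centriole and wrapped in its own membrane. Cargo enters on trains of intraflagellar transport: complex B runs outward with kinesin-2, and complex A and dynein-2 serve the return. The transition zone gates the base, and the BBSome carries membrane proteins out of the cilium. In vertebrates the Hedgehog pathway depends on this organelle, since the receptor Ptch1, the transducer Smo and the Gli proteins move through it. In mice, loss of several of these genes disturbs Gli activation or Gli repressor formation.

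Pathway readouts were lower in Shh KO tissue in the same table. In the authors' deposited table Shh read 5.44 FPKM in Shh KO and 15.7 FPKM in Shh WT tissue. Ptch1, the receptor, read 11.6 FPKM in Shh KO and 33.8 FPKM in Shh WT there, and Gli1, a factor induced by the pathway, 15.0 FPKM in Shh KO and 38.2 FPKM in Shh WT. All 4 readouts (Shh, Ptch1, Gli1 and Hhip) were called lower at a Cuffdiff q under 0.05, and the median of their log2 fold changes was −1.54, in the authors' deposited table. FPKM counts fragments scaled to transcript length and library size. Beside them, 12 markers of posterior second heart field mesoderm were looked up, all 12 of them tested by Cuffdiff. Their median log2 fold change was −0.08, with 5 above 0 and 3 called lower (Osr1, Foxf1 and Foxf2). Such ratios between genotypes cannot show what the tissue is, so the tissue label was not tested. Among the uncalled ones, Gata4 stood at 0.35 (q = 0.829) and Hand2 at 0.39 (q = 0.821) in the authors' deposited table. Tbx5, at −0.44 (q = 0.562), and Isl1, at −0.39 (q = 0.821), lay on the other side of 0 there. The FPKM values follow for 2 of the called markers: Osr1 read 33.5 FPKM in Shh KO and 71.4 FPKM in Shh WT, and Foxf1 42.5 FPKM in Shh KO and 83.5 FPKM in Shh WT, in the authors' deposited table.

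No cilium gene was called. Of the 42 members, Cuffdiff tested 41, and 0 had a q under 0.05, in either direction; 0 had an unadjusted p under 0.05. Over all 13048 rows that have a gene name, a test and a readable fold change (named tested rows), 1.94% were called, 1.56% higher and 0.383% lower, and 7.51% had an unadjusted p under 0.05. At a share of 1.94%, a list of this size holds few calls or none, so a count of 0 at that threshold says little about the list. The members' smallest p was 0.0919, for Ift74, in the authors' deposited table, and the p of 39 of the 41 was above 0.4. Of the tested members 40 shared a deposited q of 0.999659, and Ift74 had 0.926.

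The log2 fold changes of the members lay close together. In the authors' deposited table they ran from −0.42 to 0.18, so that Shh KO levels lay between 74.6% and 114% of Shh WT levels. The median was −0.05, against 0.02 over all named tested rows. Of the 41 tested members 25 (61.0%) had a value below 0, against 45.1% of all named tested rows. The absolute log2 fold change was under 0.2 in 38 members (92.7%), against 62.6% of all named tested rows, and its median was 0.08 against 0.15. The estimated standard error was similar in both, with medians of 0.24 for the members and 0.24 for all rows when derived from the p-value. Cuffdiff p-values above 0.5 were held by 82.9% of the members and 57.2% of all rows. These shares describe the list and were not tested. Other cilium genes, described below, were closer to all rows in these shares when their lists were pooled, though not in every list.

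**Figure D1:**
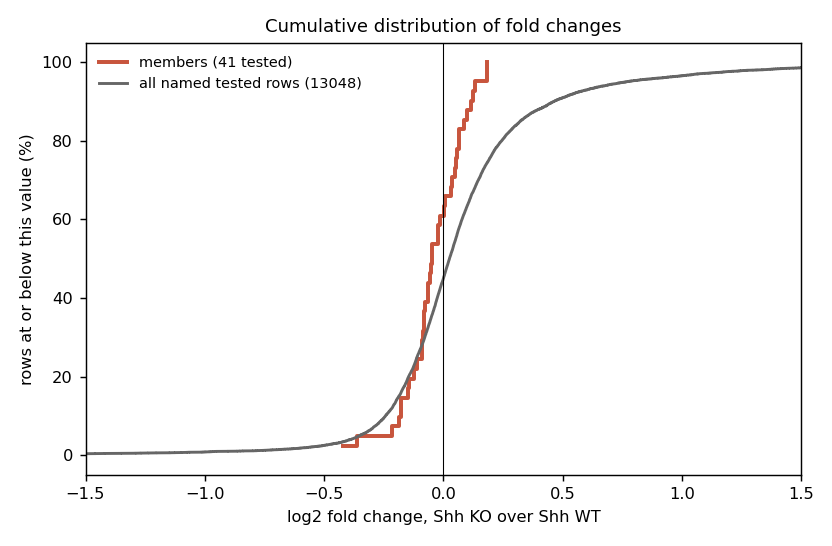
The plot gives, for the 41 tested members and for all 13048 named tested rows, the percentage of rows (vertical axis) at or below each log2 fold change of Shh KO over Shh WT (horizontal axis, shown from −1.5 to 1.5). The members' curve stays between −0.42 and 0.18, while the curve of all rows has tails on both sides.

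How large a change the data leave room for was read from approximate 95% intervals. With the standard error taken as the fold change divided by the deposited test statistic, 11 of the 41 intervals lay within a 2-fold change in either direction, and the median half-width was 1.01 on the log2 scale. That statistic is not on the scale of the p-values: over the tested members the normal deviate of the deposited p was 2.11 times the statistic (median). With the standard error taken from the p-value, all 41 intervals lay within a 2-fold change and 23 within a 1.5-fold change, with a median half-width of 0.48. On that basis the lowest lower bound was −0.91 (Ift74) and the highest upper bound 0.78 (Inpp5e). All 41 intervals contained 0 by either estimate, which only restates that no member had an unadjusted p under 0.05. Intervals below use the p-value unless the statistic is named.

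**Figure D2:**
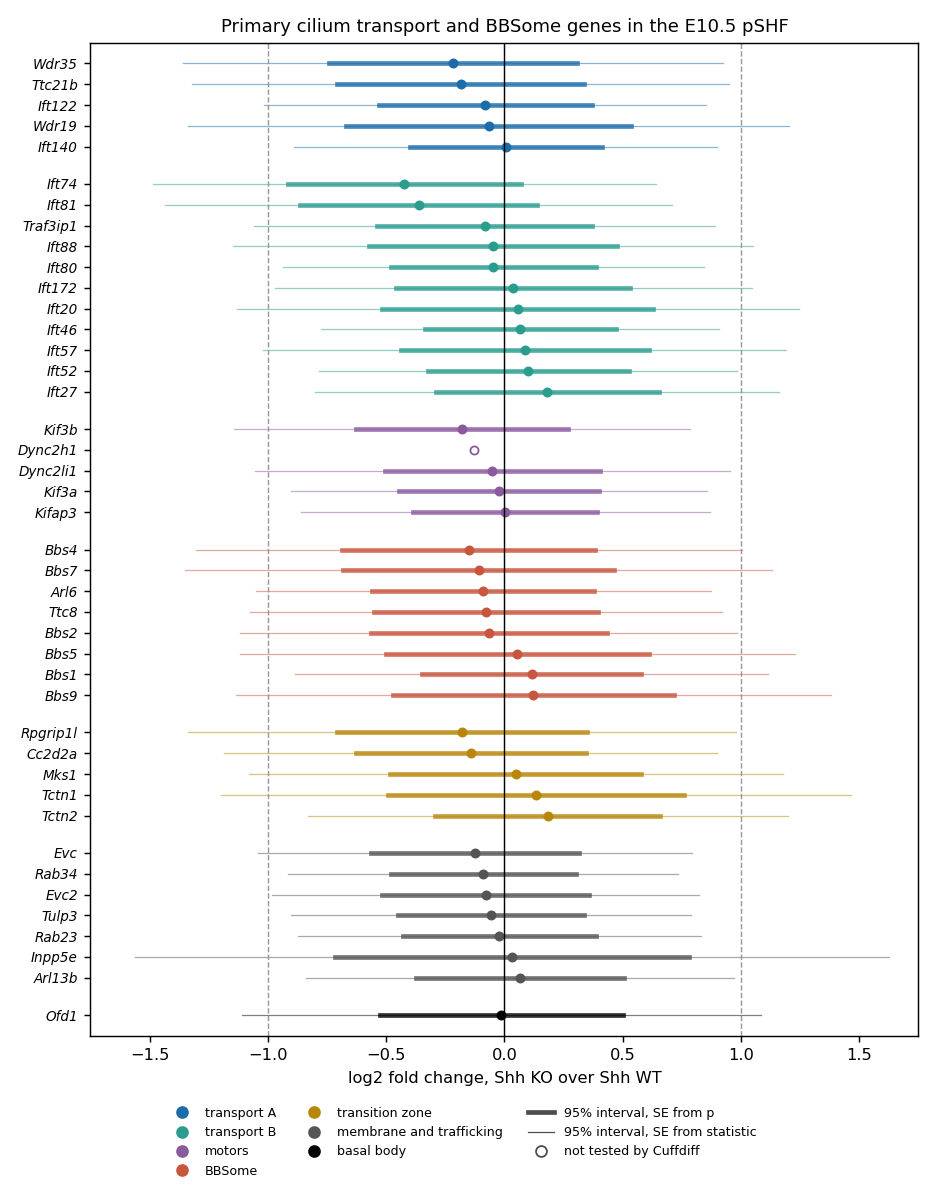
Each point is the log2 fold change of Shh KO over Shh WT for 1 of the 42 genes, grouped by role, with thick bars for the approximate 95% interval from the p-value and thin bars for that from the test statistic. Dashed lines mark a 2-fold change. All thick bars cross 0 and stay inside the dashed lines, 11 of the thin bars stay inside them, and Dync2h1, which Cuffdiff did not test, is an open circle.

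Complex A of intraflagellar transport, with 5 members, turns trains around and brings membrane receptors into the cilium. Its median log2 fold change was −0.08, and 4 of 5 values were below 0 in the authors' deposited table. Wdr35 had the lowest, −0.22 (p = 0.417, interval −0.74 to 0.31), in the authors' deposited table. Ttc21b, a peripheral subunit, followed at −0.18 (interval −0.71 to 0.34) there. The core subunits Ift122 (−0.08), Wdr19 (−0.07) and Ift140 (0.01) were nearer 0 in the authors' deposited table. No member of the complex passed the test, and its members lay closer to each other than any of their intervals is wide.

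Complex B, with 11 members, carries tubulin and other cargo outward, and it held both the lowest values of the whole list and 1 of the highest. Ift74 had a log2 fold change of −0.42, or 74.6% of the Shh WT level, in the authors' deposited table (p = 0.0919, interval −0.91 to 0.07). Ift81 had −0.36, or 77.8% of the Shh WT level, in the authors' deposited table (p = 0.156, interval −0.86 to 0.14). The proteins of these 2 genes pair with each other as a coiled-coil unit that binds tubulin. They ranked 1 and 2 from the bottom of the 41 tested members, and Wdr35 was the only other member with an absolute value of at least 0.2. Of all named tested rows, 14.6% had a larger absolute log2 fold change than Ift74 and 17.8% a larger one than Ift81.

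At the other end of complex B, Ift27, a small GTPase, stood at 0.18 (p = 0.449, interval −0.29 to 0.65) in the authors' deposited table. In mice Ift27 is largely dispensable for building cilia but needed for Hedgehog signalling, and its protein pairs with that of Hspb11, which is not a member. Hspb11 stood at 0.40 (p = 0.157) in the authors' deposited table, the highest of 16 tested transport and motor genes outside the list. Neither pair of partner genes was called, and whether the pairs differ from each other was not tested.

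The remaining complex B genes lay between −0.08 and 0.10. In the authors' deposited table the core subunits Ift88 (−0.05), Ift46 (0.07) and Ift52 (0.10) straddled 0; Ift88 is required for cilium assembly in mice. The subunits Traf3ip1 (−0.08), Ift80 (−0.05), Ift172 (0.04), Ift20 (0.06) and Ift57 (0.09) did the same in the authors' deposited table. Ift46 had an interval of −0.34 to 0.47, among the narrower ones of the list. The median of complex B was 0.04, with 5 values below 0 and 6 above.

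Motor genes numbered 5, of which 4 were tested. Kif3a and Kif3b encode the motor chains of kinesin-2 and Kifap3 its cargo adaptor. Kif3b stood at −0.18 (interval −0.63 to 0.27), Kif3a at −0.02 (−0.45 to 0.40) and Kifap3 at 0.0034 (−0.38 to 0.39), all log2 fold changes in the authors' deposited table. Dync2li1, the light intermediate chain of dynein-2, stood at −0.05 in the authors' deposited table. Dync2h1, the dynein-2 heavy chain, has a deposited value of −0.13 with a p of 1 and a statistic of 0, and was taken as untested. The median of the 4 tested motor genes was −0.04.

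The BBSome genes, 7 subunits and the GTPase Arl6 that recruits the complex to membranes, all lay between −0.15 and 0.12, with a median of −0.07, in the authors' deposited table. Bbs4 was lowest at −0.15 (p = 0.581, interval −0.68 to 0.38) and Bbs9 highest at 0.12 (p = 0.687, interval −0.47 to 0.72) in the authors' deposited table. Between them stood Bbs7 (−0.11), Arl6 (−0.09), Ttc8 (−0.08), Bbs2 (−0.07), Bbs5 (0.05) and Bbs1 (0.11) in that table. Mutation of these genes causes Bardet-Biedl syndrome in humans. The whole group spans less than the width of any of its intervals.

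Transition zone genes, 5 in all, were spread to both sides. Rpgrip1l, a scaffold of the zone, stood at −0.18 (p = 0.507, interval −0.71 to 0.35) and Cc2d2a at −0.14 (−0.63 to 0.34) in the authors' deposited table. Mks1 (0.05), Tctn1 (0.13) and Tctn2 (0.18), partners of Cc2d2a in the same module, were above 0 there. Tctn2 had the highest value of all 41 tested members, with p = 0.45 and an interval of −0.29 to 0.66 in the authors' deposited table. The group's median of 0.05 changed sign, to −0.047, when Tctn1 was left out because its row overlaps Hvcn1.

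The other 8 members fall outside these groups and act at the ciliary membrane or the basal body. Evc and Evc2, which bind Smo near the base of the cilium and pass on the Hedgehog signal, stood at −0.12 (interval −0.56 to 0.32) and −0.08 (−0.52 to 0.36) in the authors' deposited table. They are neighbours on chromosome 5 (Evc at 37299171 to 37336881, minus strand; Evc2 at 37338478 to 37425054, plus strand; GRCm38), transcribed away from each other, with 1596 bases between their rows. Tulp3, an adaptor that delivers receptors such as Gpr161 with complex A, stood at −0.06 (−0.45 to 0.33) in the authors' deposited table.

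Among the small GTPases, Rab34, which acts when the cilium first forms inside the cell, stood at −0.09 (interval −0.48 to 0.30) in the authors' deposited table. Rab23, which in mice holds back the Hedgehog pathway, stood at −0.02 (−0.43 to 0.39), and Arl13b, a GTPase of the ciliary membrane, at 0.07 (−0.37 to 0.51) there. Inpp5e, a phosphatase that sets the lipids of the ciliary membrane, had the widest interval of the list, 0.03 with bounds of −0.72 and 0.78, in the authors' deposited table. Ofd1, a protein of the distal centriole encoded on the X chromosome, stood at −0.01 (−0.53 to 0.50) in the authors' deposited table. All 8 lay between −0.12 and 0.07.

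The members are spread over 16 chromosomes, and all 42 rows overlap their own protein-coding gene in GRCm38. Ift74 lies on chromosome 4 (94614520 to 94693233, plus strand), Ift81 on chromosome 5 (122550204 to 122614518, minus strand), Ift27 on chromosome 15 (78159463 to 78174108, minus strand) and Tctn2 on chromosome 5 (124598749 to 124627738, plus strand). In 8 rows another named row overlaps, so reads could be shared: Ift74 (Lrrc19 and Mir872), Ift172 (Krtcap3), Ift20 (Tmem97), Ift140 (Tmem204), Arl6 (Epha6 and 4930547E14Rik), Arl13b (Stx19), Inpp5e (Pmpca) and Tctn1 (Hvcn1). Of these neighbours, Tmem97 stood at 0.46, Tmem204 at −0.17, Krtcap3 at −0.18, Hvcn1 at −0.08 and Pmpca at 0.06 in the authors' deposited table, and 0 of them were called. The Arl6 row spans 992 kb, reaching across Epha6.

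Fold changes in this table moved with the genomic span of a row, and the members are mostly long. Named tested rows were split into 5 classes of about equal size by span. Those in the shortest class (0.061 to 8.55 kb) had a median log2 fold change of 0.11, and those in the longest 2 classes (from 36.1 kb) −0.03 each. Of the 41 tested members, 25 fall in these 2 classes, 17 in the shorter of them with a median of −0.08 and 8 in the longest with a median of −0.05. Ift74 (78.7 kb) and Ift81 (64.3 kb) are both among the 17. With each member set against the median of its own class, the median of the list was −0.03, an alternative chosen after seeing the data. The part of span in the members' values was not tested further.

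**Figure D3:**
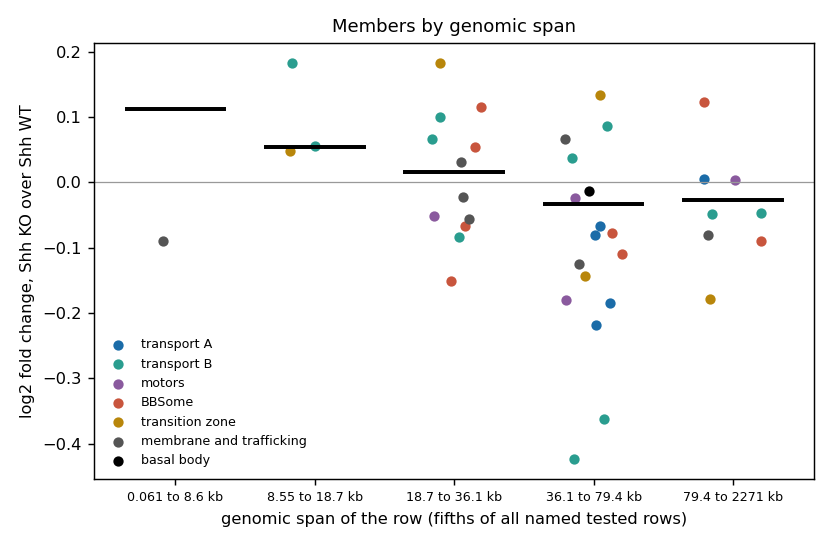
Points are the log2 fold changes of the 41 tested members (vertical axis), coloured by role, in 5 classes of all named tested rows by genomic span in kb (horizontal axis, with a small sideways scatter), and black bars are the medians of all rows in each class. The bars lie at 0.11 in the shortest class and −0.03 in the longest, and most members sit in the 3 longer classes.

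Other genes of the cilium that are not members gave the same count of calls. In 5 further lists (transport and motors, BBSome, transition zone, centriole and basal body, membrane and lipidated cargo) 79 rows were tested by Cuffdiff, 0 were called and 0 had an unadjusted p under 0.05. Over all named tested rows these shares were 1.94% and 7.51%, so a count of 0 calls says little about these lists. The median log2 fold change of the 79 rows was −0.0015. The absolute log2 fold change was under 0.2 in 67.1% of them, against 92.7% of the members and 62.6% of all named tested rows. Its median was 0.14, against 0.08 in the members and 0.15 in all rows. Pooled, these other cilium genes thus did not share the narrow spread of the members, but the lists differed in this. The share under 0.2 was 100% of the 10 other BBSome genes, as narrow as the members by this measure. It was 45.5% of centriole and basal body genes and at most 75% in the remaining lists. The lists also differed in direction: 11 of 16 other transport and motor genes were above 0 (median 0.07), while 19 of 22 centriole and basal body genes were below 0 (median −0.21). In the authors' deposited table Pcm1, a scaffold of centriolar satellites, stood at −0.38 (p = 0.0889) and Alms1 at −0.43 (p = 0.133). Among the other transition zone genes reported here, Ahi1 (−0.31, p = 0.272) and Tmem107 (0.31, p = 0.272) had the smallest p, in the authors' deposited table. Rab11a, a GTPase of recycling vesicles, stood at 0.20 (p = 0.285) and Ccdc28b at 0.15 (p = 0.552) in the authors' deposited table, with the smallest p of the other BBSome genes. Cluap1, a complex B gene outside the list, stood at −0.26 (p = 0.343), and among membrane and cargo genes Pde6d, a carrier of lipidated proteins such as Inpp5e, stood at 0.26 (p = 0.221) and Tub at −0.41 (p = 0.222), all in the authors' deposited table.

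A list of transcription factors, made up of the tested RFX family with Foxj1 and Myb, was described as well. Its median absolute log2 fold change was 0.152, against 0.146 over all named tested rows, and 5 of its 10 tested rows were below 0. Rfx3 (−0.10), Rfx2 (0.11) and Rfx1 (−0.13), factors that bind the X-box of ciliary promoters, and Foxj1 (−0.02), the factor of motile cilia, had no call in the authors' deposited table. Of 10 tested rows of this list 0 were called, and 1 had an unadjusted p under 0.05, Rfx4, a factor of the neural tube, at 2.45 (p = 0.0291, q = 0.562) in the authors' deposited table. Rfx7 came next by p, at −0.37 (p = 0.0779), and Myb, a factor of multiciliated cells, stood at 0.47 (p = 0.117), in that deposited table of the authors. Rfx5 has 2 rows, at 0.17 and 0.27, in the authors' deposited table. Of 22 motile cilium genes with a row, Cuffdiff tested 7, and 0 were called or had an unadjusted p under 0.05, with a median of −0.01. Tekt1 (−0.40, p = 0.303) and Rsph1 (0.35, p = 0.35) led them by p in the authors' deposited table. The other 15, among them the dynein genes Dnaic1 and Dnaic2, were not tested.

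Hedgehog transducers at the cilium, listed with co-receptors, had a median log2 fold change of −0.02, against −1.54 for the readouts counted with Shh. Of 14 tested rows, from 13 genes, 1 was called by Cuffdiff and 2 had an unadjusted p under 0.05. Over all named tested rows these shares were 1.94% and 7.51%, so counts this small say little about the list. The called gene was Gas1, a co-receptor, at 0.60 (q = 0.0454) in the authors' deposited table. The co-receptors Cdon (0.48, p = 0.0196, q = 0.453) and Boc (0.34, p = 0.112) were above 0 too but not called in the authors' deposited table. Smo (−0.23), Sufu (−0.19), Gli3 (−0.20), Kif7 (−0.05) and Gpr161 (−0.01) had no call in the authors' deposited table. Gli2 has 2 rows at 1 position with values of −0.33 (p = 0.154) and 0.42 (p = 0.505) in the authors' deposited table, so no direction can be given for it.

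**Figure D4:**
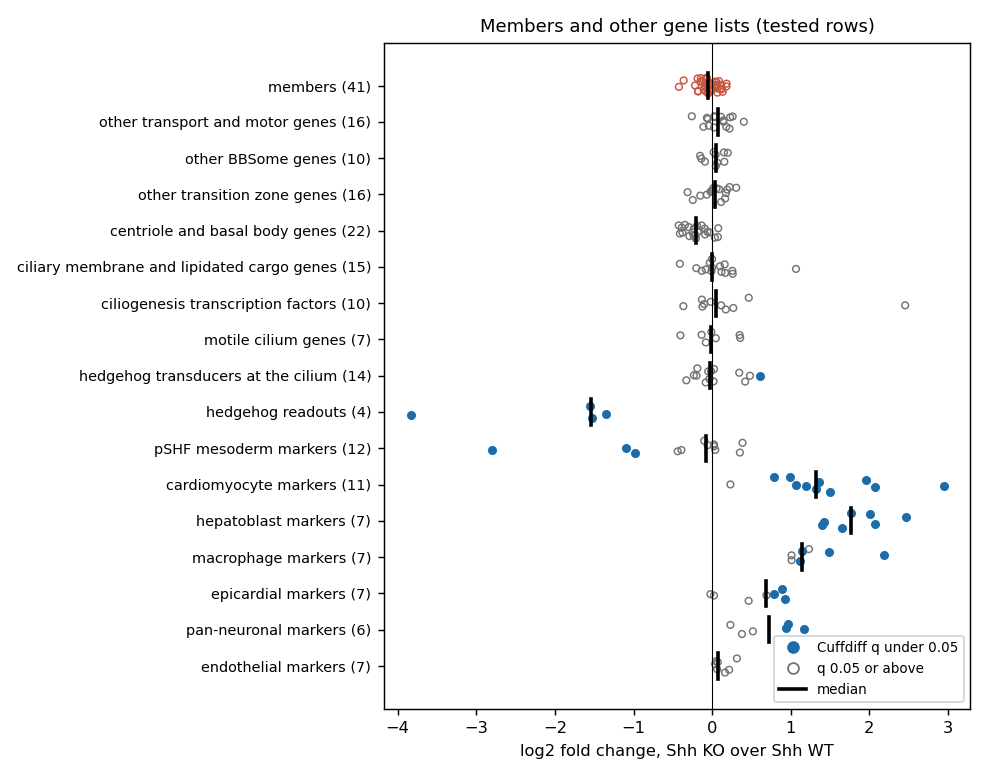
Each point is the log2 fold change of Shh KO over Shh WT (horizontal axis) of a tested row, for the members and 16 other gene lists (number of tested rows in brackets); filled points have a Cuffdiff q under 0.05 and black bars are medians. The members and the other primary cilium lists have no filled point, and the members lie between −0.42 and 0.18. Tulp2, at 1.07 in the membrane and cargo list, and Rfx4, at 2.45 among the transcription factors, stand apart from their lists. The Hedgehog readouts, counted with Shh, have a median of −1.54 and cardiomyocyte markers one of 1.32.

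Markers of other cell types shifted in the same comparison, while the members did not pass the test. Cardiomyocyte markers were called higher in 10 of 11 tested rows (median 1.32), hepatoblast markers in 7 of 7 (1.77), macrophage markers in 4 of 7 (1.14), epicardial markers in 3 of 7 (0.69) and pan-neuronal markers in 3 of 6 (0.73). Endothelial markers gave 0 calls and 0 unadjusted p under 0.05 among 7 with Cuffdiff (0.07; Tie1 at 0.31, p = 0.11, and Pecam1 at 0.22, p = 0.326, in the authors' deposited table), and pSHF mesoderm markers 3 lower of 12 (−0.08). In the authors' deposited table Myl7, the atrial myosin light chain, read 999 FPKM in Shh KO and 437 FPKM in Shh WT tissue, and Afp, the fetal liver protein, 325 FPKM in Shh KO and 95.6 FPKM in Shh WT tissue. The part of these marker shifts in the members' values was not tested.

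Promoters of the members were read for the X-box, the element bound by RFX factors, which many ciliary genes share across animals. RefSeq promoters (GRCm38.p6, 250 bases before to 50 after the start) were given for 38 of the 42 members; Ift80, Ift81, Ift122 and Dync2li1 are named only. The half-site GTTGCC, on either strand, was present in 17 of the 38 (44.7%), against 14.1% of 27025 genes in the table. A loose X-box, GTNNCC and GGNNAC with 0 to 3 bases between them on either strand, was present in 9 of the 38 (23.7%), against 4.38% of all genes. Both were present in 6 members, with overlapping letters in 5, and the stricter pair of GTTGCC and GGCAAC with 0 to 4 bases between them in 1, Tctn1, against 0.189% of all genes. The Gli motif GACCACCCA was in 0 of the 38 member promoters, against 0.289% of all genes, and ACCACCCA, its last 8 letters, also in 0, against 1.72%.

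The windows below are shown because they hold these matches before the annotated start, in capitals, for a member of each transport complex, the transition zone and the ciliary membrane. Each reads 5′ to 3′ on the strand of its gene. Ift57 is at chr16:49699197-49699256, Wdr19 at chr5:65199636-65199695, Tctn2 at chr5:124598664-124598723 and Mks1 at chr11:87853183-87853212 (all plus strand), with the loose X-box. Ift27, at chr15:78174082-78174111, and Arl13b, at chr16:62847189-62847248 (minus strand), hold the half-site.
Ift57: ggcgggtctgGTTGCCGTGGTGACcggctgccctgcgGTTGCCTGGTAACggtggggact
Wdr19: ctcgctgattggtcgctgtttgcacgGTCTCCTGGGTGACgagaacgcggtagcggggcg
Tctn2: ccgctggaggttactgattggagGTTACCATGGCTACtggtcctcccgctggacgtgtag
Mks1: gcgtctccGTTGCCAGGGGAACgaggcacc
Ift27: ggagaaggcgggttgatgatgGTTGCCagg
Arl13b: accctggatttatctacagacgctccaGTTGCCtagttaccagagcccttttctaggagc

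Ift57 is the only member with 2 loose X-boxes, starting 87 and 60 bases before its start. The 16 tested members with the half-site had a median log2 fold change of 0.04 (−0.22 to 0.18), and the 21 tested members whose promoter lacks it −0.07 (−0.42 to 0.12), a difference that was not tested. These matches describe letters in a window, not bound sites.

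**Figure D5:**
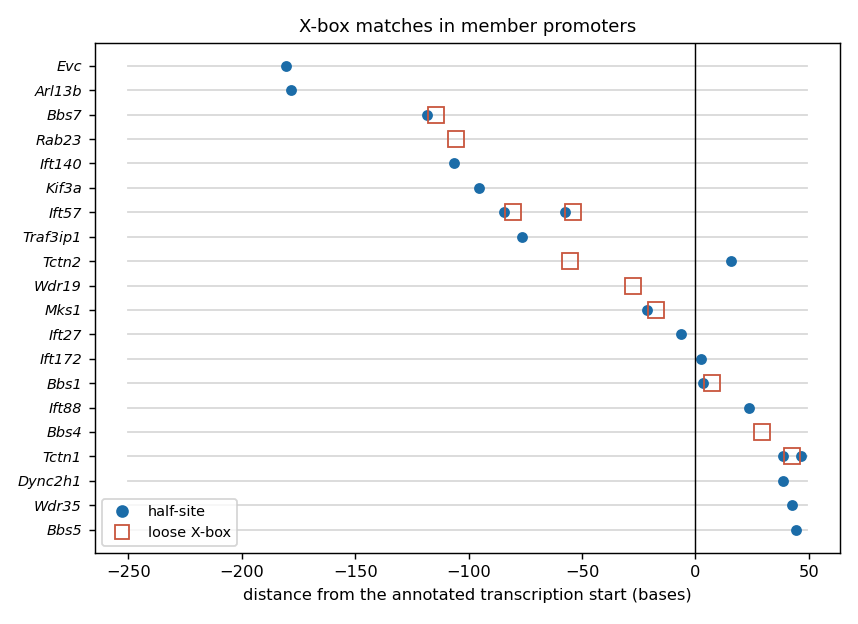
Rows are the 20 members with a half-site (filled circles) or a loose X-box (open squares) in the RefSeq promoter, and the horizontal axis is the distance in bases from the annotated start, from −250 to 49. Matches lie on both sides of the start, and of 19 half-sites 6 are in the 100 bases before it and 9 after it.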

How the data were processed

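Per the submitters' processing notes, reads were handled with TopHat2 2.0.10 and Cuffdiff 2.1.1 on build mm9; options, strand setting and library scaling are not given in the sources used here. Positions in the deposited table match GRCm38 genes and are given as such, with 1 added to deposited starts. The authors deposited log2 fold changes, a test statistic (a score), p-values and q-values for 27198 rows, and, for 253 genes, pooled FPKM values with their fold ratio. Its direction is Shh KO over Shh WT: for 251 matched genes the deposited fold change equals the log2 ratio of the deposited FPKM values within 1.07e-05. Rows with p under 1 were taken as tested; the deposited q of these 16944 rows matched a Benjamini-Hochberg recalculation within 5.94e-05.

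Calls are the deposited Cuffdiff q under 0.05, adjusted over all tested rows; members were only looked up. Standard errors were derived from the deposited statistic or p. Every member was named, and genes of other lists if called, or else the 2 with the smallest p. Called cell type markers are given as counts. Genes named for their role were chosen with values known (Rfx, Gli and transducer genes, Osr1, Foxf1, Gata4, Hand2, Tbx5, Isl1, Myl7, Afp). Members and lists were chosen with earlier results of these data known. The planned tests that need values per library or levels per gene could not be run. Python 3.11.15, pandas 2.3.3, NumPy 2.4.6 and SciPy 1.17.1 were used, and the functions were tested on simulated data. Some genes that belong to the gene lists beside the members are not reported here and were left out of the lists' counts.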

Additional observations from a re-analysis of the deposited data

How the results depend on the processing

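The count of 0 called members was the same at a Cuffdiff q under 0.01 or 0.10, at an unadjusted p under 0.05, with Benjamini-Yekutieli adjustment, with adjustment over named rows and without overlapping rows; no member row holds several symbols. The members' median log2 fold change stayed between −0.07 and −0.03 under 5 alternatives, and a precision-weighted mean used in its place was −0.04. The count of intervals within a 2-fold change did depend on the construction: it was 11 with the standard error from the statistic, 41 with that from the p-value and 0 with a 99% interval from the statistic. Without overlapping rows the transition zone median was −0.047, since 1 of its 5 genes drops out. Low levels, pseudocounts and leaving out single libraries could not be examined, since the members have neither levels nor values per library here. No paired analysis was possible because the tables hold 1 comparison of pooled genotypes.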
